A study of Mus musculus with 8 samples.

Results

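The expression of 10 genes of the serotonin (5-HT) receptor family was followed through single-cell RNA-seq libraries of mouse prefrontal cortex (PFC) and striatum. The genes were Htr1a, Htr1b, Htr1f, Htr2a, Htr2c, Htr3a, Htr4, Htr5a, Htr6 and Htr7, which were 10 of the 31053 genes listed in the count matrices, and they were found there by their symbols. The animals were male C57BL/6N mice, 8 to 10 weeks old per the labels (the study's methods give an older age) and untreated, either wild type (WT) or Setd1a+/-. Setd1a encodes a histone H3 lysine 4 methyltransferase, and the Setd1a+/- mice carried on 1 allele a frameshift made by CRISPR in exon 15, upstream of the catalytic SET domain. Per the study's methods their founders were of a hybrid background and were crossed back to C57BL/6N, and the mutants were compared with WT littermates. Tissue of 2 mice was pooled for each library, and there were 2 WT and 2 Setd1a+/- libraries per tissue, 8 in all. The striatal libraries are labelled nucleus accumbens, while the study describes dorsal and ventral striatum, and striatum is used here. The allele is constitutive and so is present in every cell type.

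Serotonin is released in the forebrain by axons of neurons whose cell bodies lie in the raphe nuclei of the brainstem, and its effect on a cell is set by the receptors that the cell carries. Receptors of the Htr1 and Htr5 classes act through inhibitory Gi/o proteins and lower cAMP, those of the Htr2 class act through Gq and phospholipase C, and those of the Htr4, Htr6 and Htr7 classes act through Gs and raise cAMP. Htr3a differs from all of them because it encodes a subunit of a cation channel that serotonin opens directly. In cortex, Htr2a is known as the receptor through which classical hallucinogens act on pyramidal neurons, and Htr3a is a textbook marker of a class of interneurons outside the Pvalb and Sst classes.

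The 10 genes lie on 9 different chromosomes, and Htr1b and Htr3a share chromosome 9. In the GRCm38 annotation Htr1a is a single-exon gene (chr13:105443639-105448122, plus strand), whereas Htr2a has 3 merged exons (chr14:74640840-74709494, plus strand) and Htr2c has 8 (chrX:146962513-147197277, plus strand). Promoter windows of 300 bases, from 250 before to 50 after the start of a gene, were taken from RefSeq on GRCm38.p6 and matched 8 of the 10 genes with 9 windows, since Htr6 had a pair. The windows of Htr2a and Htr2c are shown because these receptors were high in different neurons, and that of Htr7 because its CG content was far from theirs. Each is read 5′ to 3′ on the strand of its gene, and capitals mark every CG dinucleotide (the letters CG, which read the same on both strands), at chr14:74640624-74640923 for Htr2a, chrX:146962263-146962562 for Htr2c and chr19:36057311-36057610 (minus strand) for Htr7.
Htr2a: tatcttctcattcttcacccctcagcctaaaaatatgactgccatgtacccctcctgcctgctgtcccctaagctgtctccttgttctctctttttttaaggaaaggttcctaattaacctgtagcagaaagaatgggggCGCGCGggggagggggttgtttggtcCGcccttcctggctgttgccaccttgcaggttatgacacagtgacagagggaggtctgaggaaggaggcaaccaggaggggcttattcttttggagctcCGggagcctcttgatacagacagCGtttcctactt
Htr2c: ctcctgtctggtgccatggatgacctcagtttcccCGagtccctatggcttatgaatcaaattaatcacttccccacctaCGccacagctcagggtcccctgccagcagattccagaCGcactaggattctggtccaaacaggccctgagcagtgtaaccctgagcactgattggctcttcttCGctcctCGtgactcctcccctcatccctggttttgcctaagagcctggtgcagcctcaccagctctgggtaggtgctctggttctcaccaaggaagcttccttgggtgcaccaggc
Htr7: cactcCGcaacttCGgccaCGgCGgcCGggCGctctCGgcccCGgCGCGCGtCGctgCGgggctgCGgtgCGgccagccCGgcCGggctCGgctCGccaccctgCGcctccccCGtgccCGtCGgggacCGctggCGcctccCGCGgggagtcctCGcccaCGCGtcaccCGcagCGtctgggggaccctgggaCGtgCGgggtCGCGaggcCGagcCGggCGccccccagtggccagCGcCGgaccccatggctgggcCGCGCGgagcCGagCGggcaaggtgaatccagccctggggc
The Htr2a window held 6 CG dinucleotides and the Htr2c window 5, against a median of 7 (quartiles 3 and 20) over all 32851 promoter windows of this length. The Htr7 window held 46, and 1.6% of all windows held as many or more, compared with 56.4% for Htr2a and 62.0% for Htr2c. The other windows held 7 (Htr1a), 11 (Htr1b), 13 (Htr1f), 14 (Htr5a) and, for Htr6, 10 and 29 CG dinucleotides. These counts describe the letters of the windows and were not related to the expression values by any test.

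The 23687 cells that the authors had annotated were used, 8997 from PFC and 14690 from striatum. Libraries held between 15154268 and 26277553 unique molecular identifiers (UMIs, each standing for 1 captured transcript) in total, with medians of 2302.5 to 3042 UMIs per annotated cell. Libraries shared at most 0.88% of the annotated barcodes of the smaller of any pair. Of the defining markers, 24 of 24 were highest in the cell type they mark in PFC and 28 of 30 in striatum, the exceptions being Gad2 and Slc32a1, which were higher in D1 MSNs than in interneurons. For 5 of the 7 excitatory subtypes the gene in the name was highest there, but Cux2 was higher in SL-Myh7 and Etv1 higher in DL-Tshz2 than in the subtypes named after them, so those names are used as labels only. Setd1a itself was lower in the mutant but was not called, with a log2 fold change of -0.39 (SE 0.43) in PFC and -0.38 (SE 0.28) in striatum over all annotated cells, edgeR adjusted p of 1 in both.

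In total the 10 genes gave 7028 UMIs, and their levels were expressed as CPM, the UMIs of a gene per 1000000 UMIs of all genes, summed over the cells of a group in a library. Means are given ± SD over the 4 libraries of a tissue, both genotypes together (n = 4). Because reads come from the 3′ end of transcripts, each gene was compared between groups of cells and not with other genes. Neurons held most of the UMIs of every member. In PFC, excitatory neurons (EN) were highest for Htr1a, Htr1b, Htr2a, Htr2c, Htr4, Htr5a and Htr6, and interneurons (IN) for Htr1f, Htr3a and Htr7. In striatum, D1 or D2 medium spiny neurons (MSNs, the projection neurons named for their dopamine receptor) were highest for Htr1b, Htr1f, Htr2c, Htr4, Htr5a and Htr7, interneurons for Htr1a, Htr2a and Htr3a, and astrocytes for Htr6. Excitatory neurons were also the deepest cells of PFC, and after every cell was thinned to 1000 UMIs the share of positive cells was instead highest in interneurons for Htr1b (3 cells) and Htr5a (1 cell) and in astrocytes for Htr6 (1 cell). In striatum it moved to interneurons for Htr4 (2 cells) and to D1 MSNs for Htr6 (13 cells, 0.333%, beside 0.326% of D2 MSNs). These cells were too few to give an order.

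**Figure D1:**
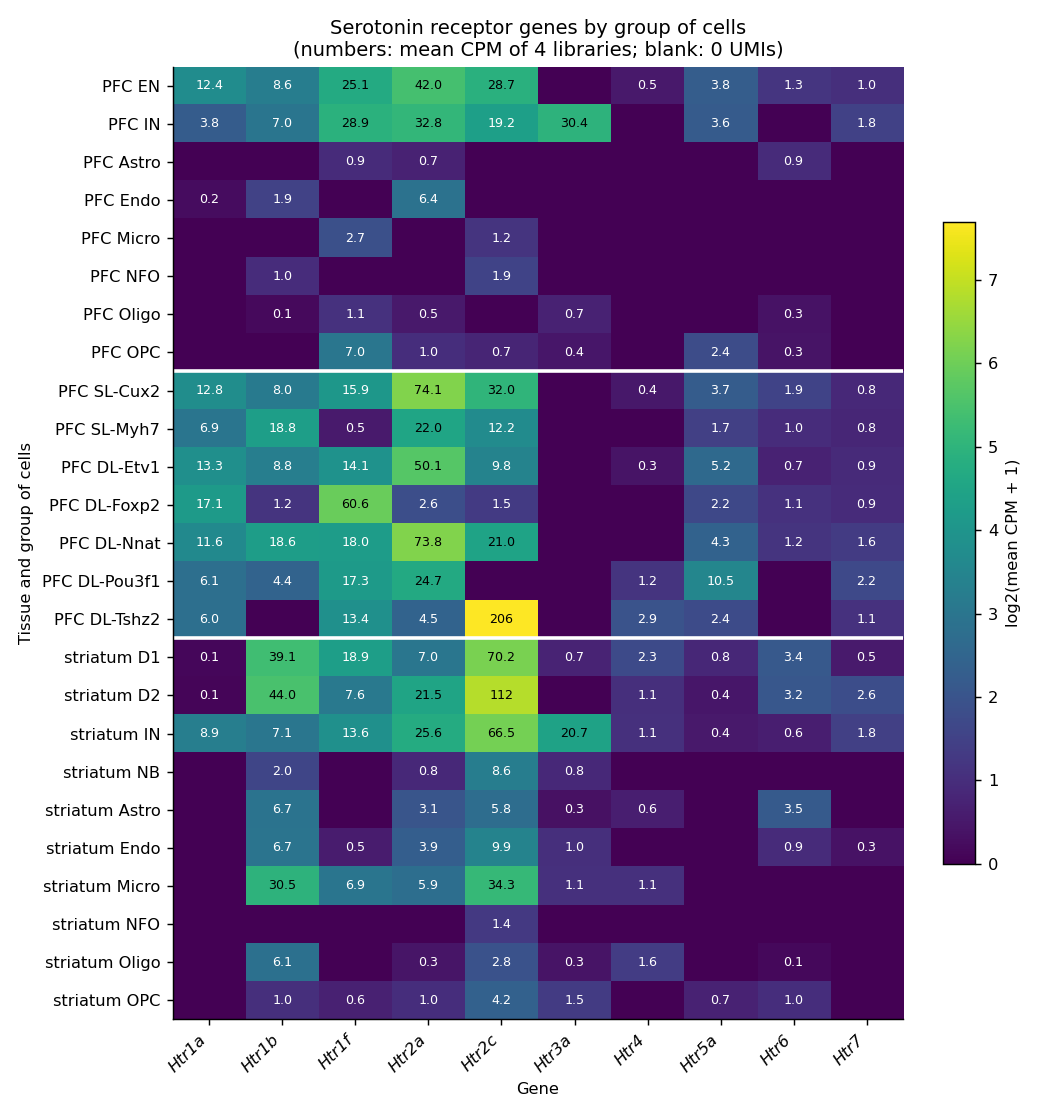
Heat map of the 10 serotonin receptor genes (columns) in the 8 PFC cell types, the 7 PFC excitatory subtypes and the 10 striatal cell types (lines), coloured by log2(mean CPM + 1) with the mean CPM of 4 libraries printed in each cell and blanks where no UMI was found. The highest value is Htr2c in DL-Tshz2 neurons at 206 CPM, and Htr3a is above 20 CPM only in the interneurons of the 2 tissues (30.4 and 20.7 CPM).

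Differences between groups of cells were tested with edgeR on summed counts, and a gene was called at an adjusted p under 0.05 with a fold change over 1.5. The authors made the cell groups by clustering these same cells, so these tests describe the size of a difference against the spread between libraries and are not independent of the clusters. RNA that had leaked into the suspension was measured in droplets with at most 100 UMIs. It held up to 16.9 CPM of a receptor in PFC (Htr2a) and 58.9 CPM in striatum (Htr2c), and low levels in glia are given beside it. These values are the make-up of free RNA, not the amount it adds to a cell. PFC endothelial cells, for instance, gave 0 Htr2c UMIs in 1562 cells (limit 0.667 CPM), where free RNA held 15.8 CPM. A level below that of free RNA is not for that reason alone background.

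Htr1a encodes the inhibitory receptor that lowers firing of cortical and raphe neurons. In PFC excitatory neurons its CPM was 12.2 and 10.9 in the WT libraries and 17.1 and 9.36 in the Setd1a+/- libraries, and 237 of its 244 PFC UMIs came from these cells. Interneurons of PFC gave 6 UMIs in 298 cells (3.75 ± 3.69 CPM), so the WT and mutant libraries of that group each rested on a few molecules. In total 7.57% of excitatory neurons (95% Wilson interval 6.64 to 8.61%, median depth 6546 UMIs) held an Htr1a UMI, against 0 of 1694 oligodendrocytes (median depth 2056 UMIs). By subtype the level was 17.5, 11.0, 24.6 and 15.4 CPM in DL-Foxp2 neurons (WT 1, WT 2, Setd1a+/- 1 and Setd1a+/- 2, the order used throughout), a deep-layer group. It averaged 13.3 CPM in DL-Etv1, 12.8 in SL-Cux2, 11.6 in DL-Nnat, 6.90 in SL-Myh7 and 6.02 in DL-Tshz2. DL-Foxp2 exceeded the mean of the other 5 tested subtypes by 0.80 on the log2 scale (SE 0.235, edgeR adjusted p = 0.00587), a comparison in which 14.6% of all genes were called. The neighbours in this order, from DL-Foxp2 to DL-Nnat, overlapped in their library ranges, and in WT 2 DL-Etv1 (13.6 CPM) was above DL-Foxp2. After thinning to 1000 UMIs the share of positive cells was highest in DL-Nnat (10 of 463 cells, 2.16%), beside 10 of 743 in DL-Foxp2 (1.35%).

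In striatum Htr1a was a gene of interneurons. Its level there was 10.6, 7.40, 9.85 and 7.54 CPM, with 39 of the 41 striatal UMIs, while 3904 D1 MSNs and 2451 D2 MSNs gave 1 UMI each. Free RNA held 1.67 CPM. Cells with a UMI of Chat, the marker of cholinergic interneurons, carried Htr1a in 6 of 18 cells (33.3%, interval 16.3 to 56.3%), compared with 30 of 803 (3.74%) without, but they were also deeper, with a median of 10482 against 4746 UMIs. None of 53 Pvalb-positive striatal interneurons held an Htr1a UMI, which allows up to 6.76% of cells with a UMI by the Wilson interval and sets no limit on cells that express the gene.

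Htr1b encodes the presynaptic inhibitory autoreceptor and heteroreceptor of axon terminals, and most of its RNA was in striatal projection neurons. D1 MSNs measured 37.0, 31.9, 53.0 and 34.5 CPM and D2 MSNs 41.7, 34.2, 58.6 and 41.6 CPM. Both classes were thus highest in the same library, Setd1a+/- 1, and their difference of -0.24 on the log2 scale (D1 against D2, SE 0.145, edgeR adjusted p = 0.554) did not pass, with D2 above D1 in 4 of 4 libraries. Striatal interneurons held 4.54, 8.23, 9.85 and 5.66 CPM, without overlap with either MSN class. The MSNs exceeded them by 2.65 (SE 0.252, edgeR adjusted p = 3.65e-13). In that comparison 2 of the 4 receptors tested were called, against 28.8% of all 11767 genes.

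Striatal microglia also carried Htr1b (30.5 ± 29.9 CPM, 16 UMIs) and Htr2c (34.3 ± 17.9 CPM, 22 UMIs). Pooled over libraries this was 54.1% of the MSN level for Htr1b and 32.8% for Htr2c. RNA that marks MSNs was found in the same cells at 27.1 to 45.8% of the MSN level (Drd1 45.8%, Drd2 30.8%, Tac1 30.1%, Adora2a 28.5%, Penk 27.4%, Ppp1r1b 27.1%), and free RNA held 31.4 CPM of Htr1b, above the level in microglia. Setd1a+/- 2 held 74.7 CPM of Htr1b from 5 UMIs in 24 microglia, and the other 3 libraries 8.59 to 21.0 CPM, so the Htr1b value rested largely on few cells of 1 library. The origin of this RNA was not tested.

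In PFC Htr1b was low on average (8.58 ± 2.32 CPM in excitatory neurons) and uneven between subtypes. DL-Nnat neurons held 11.4, 15.3, 31.6 and 16.2 CPM and SL-Myh7 neurons 25.9, 6.24, 27.7 and 15.5 CPM, and these did not differ beyond their error (log2 difference of SL-Myh7 against DL-Nnat -0.09). In 304 DL-Tshz2 neurons no Htr1b UMI was found, which allows up to 2.16 CPM. DL-Nnat was at least 8.63-fold and SL-Myh7 at least 8.72-fold higher than this limit, with SL-Cux2 (7.96 ± 3.76 CPM) and DL-Etv1 (8.77 ± 1.23 CPM) at least 3.69-fold and 4.06-fold higher. DL-Foxp2 neurons gave 6 UMIs in 743 cells (1.21 ± 1.13 CPM). Htr1b was higher in DL-Nnat than in SL-Cux2 by 1.10 (SE 0.337, edgeR adjusted p = 0.0141, with 9.67% of all genes called) and than in DL-Etv1 by 1.09 (SE 0.332, edgeR adjusted p = 0.0351, with 2.86% called). Neither was called by DESeq2 or without Setd1a+/- 1, where the log2 differences of SL-Cux2 and DL-Etv1 against DL-Nnat were -0.73 and -0.87, and the second was also not called without WT 2 or Setd1a+/- 2.

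The antisense transcript D430036J16Rik overlaps an exon of Htr1b (chr9:81628291-81633828, minus strand) and gave 1055 UMIs against 1125 of Htr1b. It followed a partly like order, with 33.6 CPM in D1 MSNs, 41.7 CPM in D2 MSNs, 30.9 CPM in SL-Myh7 and 12.2 CPM in DL-Nnat neurons, and 2 UMIs in DL-Tshz2. Unlike for Htr1b, DL-Nnat was close to DL-Etv1 (12.0 CPM) and SL-Cux2 (9.37 CPM) and well below SL-Myh7. Whether the counting used strand is not given in the sources used here, and without it the reads of Htr1b and of its antisense partner cannot be told apart.

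Htr1f encodes another Gi-coupled receptor, the target of lasmiditan in migraine. Among excitatory subtypes its RNA was concentrated in DL-Foxp2 neurons, at 66.1, 64.5, 50.04 and 61.6 CPM. The other deep groups and SL-Cux2 averaged between 13.4 and 18.0 CPM, and no library of any of them reached the lowest DL-Foxp2 library. DL-Foxp2 exceeded SL-Cux2 by 1.95 (SE 0.199), DL-Etv1 by 2.16 (SE 0.202), DL-Nnat by 1.89 (SE 0.205) and DL-Tshz2 by 2.16 (SE 0.287) on the log2 scale, each called by edgeR, in comparisons where 19.9%, 16.8%, 14.2% and 21.8% of all genes were called. In SL-Myh7 neurons a single Htr1f UMI was found in 194 cells, and the pooled CPM of DL-Foxp2 was 82.2 times that of SL-Myh7 (95% counting interval 14.6 to 3259). An Htr1f UMI was seen in 28.9% of DL-Foxp2 neurons (interval 25.8 to 32.3%) and in 5.52% of them after every cell was thinned to 1000 UMIs.

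Excitatory neurons as a whole and interneurons of PFC held 25.1 ± 4.08 and 28.9 ± 10.2 CPM of Htr1f, and their log2 difference was within its error at 0.01 (SE 0.288, edgeR adjusted p = 0.98). Of the 4 receptors tested between these classes 1, Htr3a, was called, in a comparison where 25.8% of all 9769 genes were. Htr3a had 0 UMIs in excitatory neurons and passed the filter on low counts only through interneurons. Its call therefore adds no support to the difference. Within PFC interneurons Htr1f UMIs were found in 22% of the 100 cells with a UMI of Lamp5, the marker of neurogliaform cells, and in 4.04% of 198 cells without. They were found in 29 of 184 cells with a UMI of the neuropeptide gene Npy (15.8%) and in 1 of 114 without (0.877%). In CPM the cells with Lamp5, Npy or the peptide gene Cck were higher in 4 of 4 libraries each. The Lamp5 and Npy groups were deeper (medians of 5802.5 and 6025 UMIs) than their complements (4696 and 3963 UMIs).

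Oligodendrocyte progenitors (OPC) were the only non-neuronal PFC group with more than 5 Htr1f UMIs. They held 4.50, 13.0, 7.90 and 2.68 CPM, from 18 UMIs in 18 of 1337 cells, and free RNA held 6.70 CPM. Excitatory neurons were higher than OPCs by 1.89 (SE 0.35, with 60.6% of genes called) and interneurons by 1.87 (SE 0.445, with 49.9% called), edgeR adjusted p of 8.45e-06 and 0.000436. Htr1f passed the filter on low counts through the neurons, so these tests add no support to the difference. PFC endothelial cells gave 0 UMIs in 1562 cells, so that the OPC level was at least 10.5-fold and the excitatory level at least 37.6-fold above their limit of 0.667 CPM.

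In striatum Htr1f was higher in D1 than in D2 MSNs. D1 MSNs measured 20.6, 15.1, 15.5 and 24.2 CPM and D2 MSNs 6.26, 8.72, 3.91 and 11.4 CPM, so every D1 library was above every D2 library. The log2 difference was 1.18 (SE 0.236, edgeR adjusted p = 0.00058). Of the 4 receptors tested between the classes, 3 were called, 1 higher in D1 and 2 higher in D2, against 2.88% of all 11767 genes. Striatal interneurons (15.9, 11.5, 9.85 and 17.0 CPM) did not differ beyond the error from the mean of the MSNs (log2 difference of MSNs against interneurons -0.06, SE 0.241, edgeR adjusted p = 0.87), and within them the cells with Cck were higher in 4 of 4 libraries (26.0 against 9.52 CPM pooled).

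Htr5a, a further Gi-coupled receptor of forebrain neurons, gave 84 UMIs in PFC and 19 in striatum. Excitatory neurons held 72 of the PFC UMIs (3.78 ± 0.773 CPM), PFC interneurons 6 (3.59 ± 3.13 CPM) and OPCs 6 (2.44 ± 2.14 CPM), and free RNA held 1.86 CPM. The library ranges of these 3 groups overlapped. DL-Etv1 neurons held 22 UMIs (5.18 ± 2.78 CPM, 5.74% of cells), and their median depth of 10331 UMIs was the highest of any subtype.

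**Figure D2:**
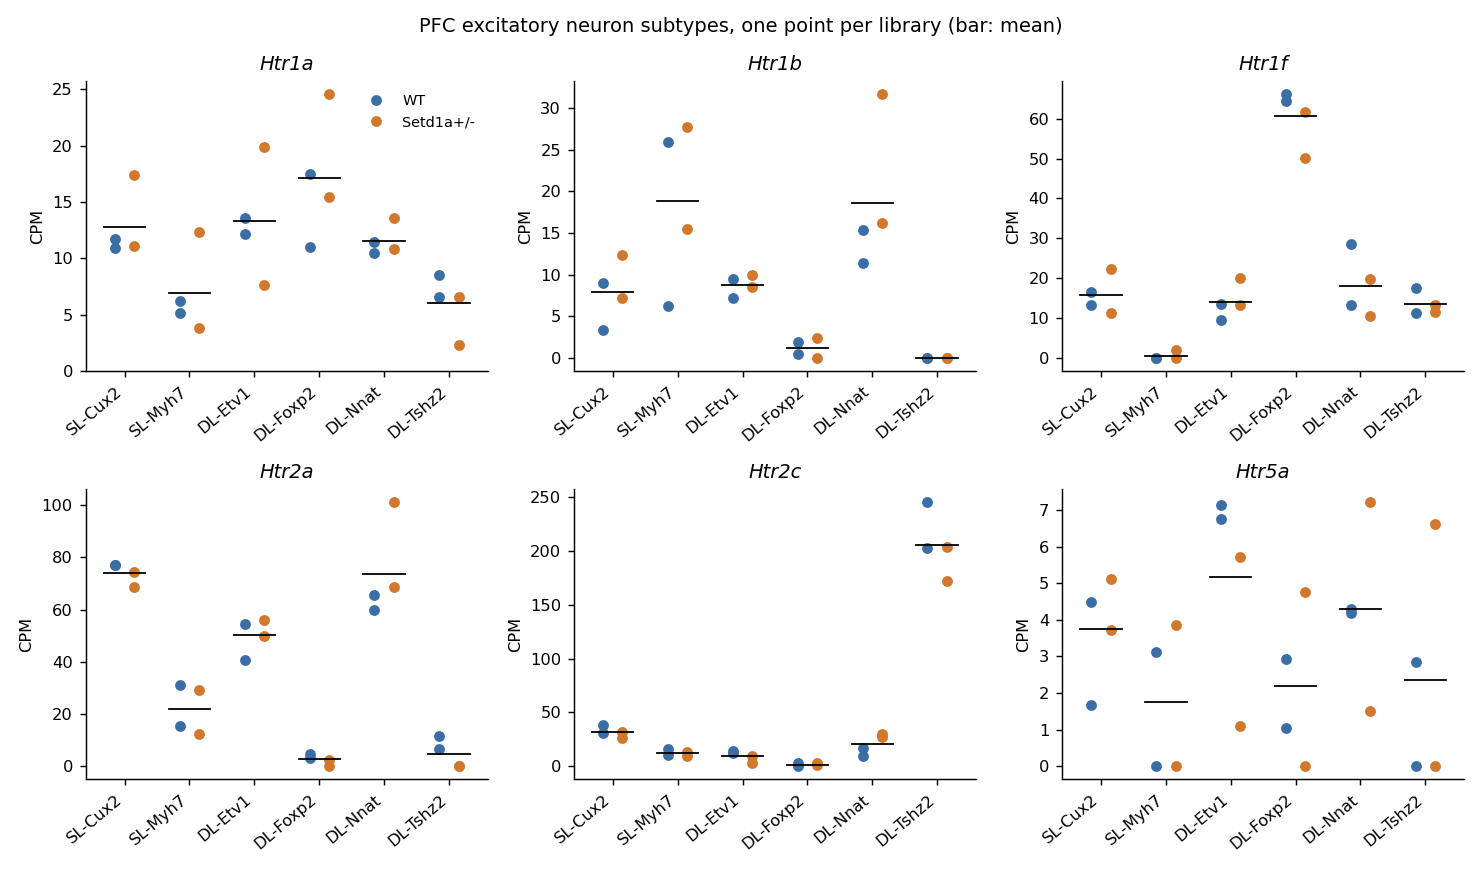
CPM of 6 receptor genes in the 6 PFC excitatory subtypes with at least 10 cells in every library, 1 point per library (blue WT, orange Setd1a+/-) and a bar at the mean of 4 libraries. Htr1f stands out in DL-Foxp2 (50.04 to 66.1 CPM) and Htr2c in DL-Tshz2 (172 to 245 CPM), whereas Htr2a is high in SL-Cux2, DL-Etv1 and DL-Nnat and low in both of the former.

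Htr2a, the Gq-coupled receptor of pyramidal neurons, had 804 of its 878 PFC UMIs in excitatory neurons (42.0 ± 5.85 CPM, 19.4% of cells). SL-Cux2 neurons, a superficial-layer group, held 76.9, 76.9, 68.5 and 74.2 CPM, and DL-Nnat neurons held 65.7, 60.0, 101 and 68.5 CPM. These did not differ beyond their error (log2 difference 0.07). DL-Etv1 neurons followed at 40.5, 54.3, 49.7 and 56.1 CPM and SL-Myh7 neurons at 15.5, 31.2, 12.3 and 29.0 CPM. SL-Cux2 was above DL-Etv1 by 0.57 (SE 0.156, edgeR adjusted p = 0.00422), which was under the 1.5-fold limit, in a comparison where 10.3% of all genes were called.

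At the low end, DL-Foxp2 neurons held 4.86, 3.15, 2.38 and 0 CPM of Htr2a and DL-Tshz2 neurons 6.62, 11.4, 0 and 0 CPM, all below the 16.9 CPM of free RNA. Against the mean of the other subtypes, Htr2a was higher in SL-Cux2 by 2.13 (SE 0.164, with 10.4% of genes called), in DL-Nnat by 2.05 (SE 0.173, with 7.77% called) and in DL-Etv1 by 1.45 (SE 0.179, with 10.6% called). It was lower in DL-Foxp2, where it fell by 3.28 (SE 0.365), and in DL-Tshz2, where it fell by 2.47 (SE 0.443, with 25.6% of genes called). The libraries of DL-Foxp2 held 5, 6, 3 and 0 UMIs and those of DL-Tshz2 3, 4, 0 and 0. Htr2a passed the filter on low counts through the other subtypes, so the tests of this low pair add no support to the difference. The superficial subtypes as a set exceeded the deep ones by 1.41 (SE 0.228, edgeR adjusted p = 4.58e-07). This value sets means of subtypes on the log2 scale against each other, and the few UMIs of DL-Foxp2 and DL-Tshz2 lower its deep side. It does not give an order of layers, since DL-Nnat and DL-Etv1 are deep groups with high levels. Every SL-Myh7 library was below every library of these deep groups. In that comparison 3 of the 5 receptors tested were called, against 13.2% of genes, and the fitted values of the other calls, Htr1b and Htr1f, are not given, since DL-Tshz2 held 0 UMIs of the former and SL-Myh7 1 UMI of the latter. Htr2c (0.34, SE 0.252) and Htr1a (-0.21, SE 0.295) were not called there.

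PFC interneurons carried Htr2a at 45.7, 15.9, 26.6 and 43.0 CPM, and excitatory neurons were higher by 0.59 (SE 0.248, edgeR adjusted p = 0.0639), which did not pass. Within interneurons, 28% of the 100 Lamp5-positive cells held an Htr2a UMI (interval 20.1 to 37.5%) against 5.56% of the 198 others, and the CPM was higher with Lamp5 in 4 of 4 libraries. The reverse held for Vip, the marker of interneurons that inhibit other interneurons, with 2 of 59 positive cells (3.39%) against 15.5% of 239 others and a lower CPM in 4 of 4 libraries. Endothelial cells of PFC held 6.45 ± 5.46 CPM of Htr2a from 20 UMIs in 20 of 1562 cells. Excitatory neurons exceeded them by 3.04 (SE 0.29, with 68.5% of genes called) and interneurons by 2.44 (SE 0.403, with 63.9% called). Htr2a passed the filter on low counts through the neurons, so these tests add no support to the difference. The endothelial level was below that of free RNA (16.9 CPM), and how much of it was free RNA was not tested. Splitting the endothelial group by UMIs of the mural cell markers Rgs5, Kcnj8 and Pdgfrb, a split chosen after seeing the data, gave 3.34 CPM without such a UMI, 7.03 CPM with 1 to 4 and 3.79 CPM with 5 or more.

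In striatum the order of Htr2a differed from that of Htr1b. D2 MSNs held 20.5, 15.5, 27.3 and 22.9 CPM and D1 MSNs 5.29, 9.52, 7.49 and 5.87 CPM, without overlap. The log2 difference of D1 against D2 was -1.57 (SE 0.25, edgeR adjusted p = 6.69e-06). Interneurons, at 32.6, 27.1, 12.3 and 30.2 CPM, were above the mean of the MSNs, for which the log2 difference of MSNs against interneurons was -0.98 (SE 0.226, edgeR adjusted p = 0.00029), and they overlapped with D2 MSNs. Of the striatal interneurons with a UMI of Cck, 53 of 164 held an Htr2a UMI (32.3%, interval 25.6 to 39.8%), against 32 of 657 without (4.87%). Their pooled level was 65.0 against 13.2 CPM, higher with Cck in 4 of 4 libraries, and their median depth was 6538 against 4465 UMIs.

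Htr2c, the other Gq-coupled receptor and one whose transcript is edited, gave 2309 UMIs in striatum and differed widely between PFC subtypes. DL-Tshz2 neurons measured 203, 245, 203 and 172 CPM, from 292 UMIs, and 55.9% of the 304 cells held at least 1 (interval 50.3 to 61.4%). After thinning to 1000 UMIs per cell the share was 18.1%. The next subtype, SL-Cux2, measured 38.5, 30.8, 26.6 and 32.2 CPM, with 15.8% of cells positive and 3.67% after thinning. DL-Tshz2 made up 304 of the 2775 excitatory neurons and gave 292 of their 541 Htr2c UMIs.

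The remaining subtypes were low in Htr2c. DL-Nnat held 17.1, 9.76, 30.1 and 27.0 CPM, SL-Myh7 10.4, 15.6, 9.25 and 13.5 CPM, DL-Etv1 12.1, 14.3, 9.94 and 2.86 CPM, and DL-Foxp2 0, 2.62, 0.794 and 2.57 CPM. Against the mean of the others, DL-Tshz2 was higher by 4.32 (SE 0.174) and SL-Cux2 by 1.05 (SE 0.211), while Htr2c in DL-Etv1 fell by 0.94 (SE 0.295) and in DL-Foxp2 by 4.03 (SE 0.379), all called by edgeR. The libraries of DL-Foxp2 held 0, 5, 1 and 1 UMIs of Htr2c, which passed the filter on low counts through the other subtypes. The call in DL-Foxp2 therefore adds no support to the difference. SL-Cux2 was also above DL-Nnat by 0.79 (SE 0.255, edgeR adjusted p = 0.0209), which was not called by DESeq2, without WT 1 (0.69) or without WT 2 (0.39). The call in DL-Etv1 was lost without WT 2 (-1.14) and without Setd1a+/- 2 (-0.58). No Htr2c UMI was found in the 62 DL-Pou3f1 neurons, which had under 10 cells in some libraries and were not tested. Thus DL-Foxp2 neurons, highest in Htr1f, were lowest of the tested subtypes in Htr2c. In Htr2a they were low together with DL-Tshz2 neurons, and the library ranges of this pair overlapped. DL-Tshz2 neurons, highest in Htr2c, were without a UMI of Htr1b.

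PFC interneurons held 5.72, 17.9, 33.3 and 19.9 CPM of Htr2c (19.2 ± 11.3 CPM), and excitatory neurons were higher by 0.69 (SE 0.315, edgeR adjusted p = 0.0937), which did not pass. The PFC interneurons with a UMI of Calb2 (calretinin) held Htr2c in 10 of 57 cells (17.5%) and those without in 9 of 241 (3.73%), with a higher CPM in 4 of 4 libraries. PFC endothelial cells, astrocytes and oligodendrocytes gave 0 UMIs, and excitatory neurons were at least 43.1-fold above the limit of the endothelial group.

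D2 MSNs carried the most Htr2c in striatum, at 113, 110, 89.1 and 138 CPM (30.9% of cells), followed by D1 MSNs at 57.0, 77.6, 67.4 and 78.6 CPM (17.4%). Every D2 library was above every D1 library, and the log2 difference of D1 against D2 was -0.75 (SE 0.106, edgeR adjusted p = 3.68e-07). Interneurons measured 55.3, 53.5, 50.5 and 107 CPM, with 3 libraries close together and Setd1a+/- 2 near D2 MSNs. The MSNs exceeded them by 0.55 (SE 0.118, edgeR adjusted p = 9.81e-05), which was under 1.5-fold. Without Setd1a+/- 2 this difference was 0.80 and passed the fold limit. Striatal interneurons with a UMI of Calb2 held 135 CPM of Htr2c against 52.5 CPM without (higher in 4 of 4 libraries), and those with a UMI of Pvalb held 2 UMIs in 53 cells, 6.48 CPM, against 70.7 CPM (lower in 4 of 4 libraries).

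**Figure D3:**
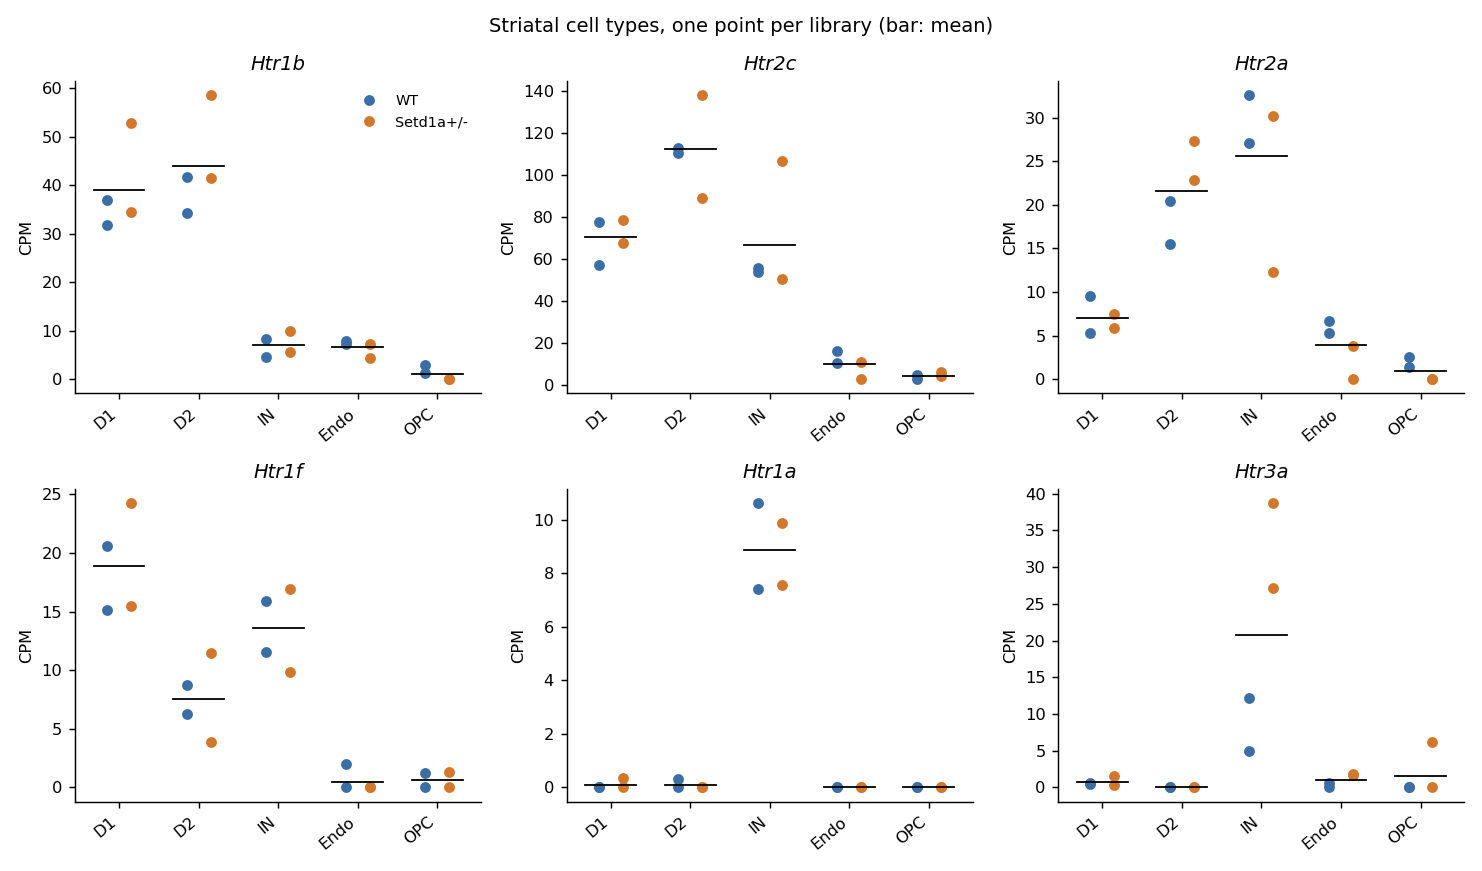
CPM of 6 receptor genes in D1 MSNs, D2 MSNs, interneurons, endothelial cells and OPCs of striatum, 1 point per library (blue WT, orange Setd1a+/-) with a bar at the mean of 4 libraries. Htr2c and Htr2a are higher in D2 than in D1 MSNs and Htr1f higher in D1, while Htr1a and Htr3a are near 0 in both MSN classes (means of at most 0.717 CPM) and present in interneurons.

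Htr3a, the channel subunit, was a gene of interneurons in both tissues. PFC interneurons held 40.0, 21.9, 26.6 and 33.1 CPM, from 47 UMIs in 23 of 298 cells (7.72%, interval 5.20 to 11.3%). No UMI was found in 2775 excitatory neurons, which were deeper (median 6546 against 5203.5 UMIs), so interneurons were at least 194-fold above the limit of 0.157 CPM that 3 UMIs over this group allow. Free RNA held 3.47 CPM. In striatum 821 interneurons held 85 UMIs (12.1, 4.94, 27.1 and 38.7 CPM), 3904 D1 MSNs held 8 UMIs, and 2451 D2 MSNs held none, at least 60.0-fold lower. Antisense transcript Gm32335 overlaps an Htr3a exon and gave 12 UMIs.

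The Htr3a signal of PFC came from a minority of interneurons defined by other markers. Cells with a UMI of Vip held it in 16 of 59 cells (27.1%, interval 17.4 to 39.6%) at 170 CPM, and cells without in 7 of 239 (2.93%) at 6.52 CPM, although the Vip-positive cells were shallower (3624 against 5627 UMIs). Calb2-positive cells held 86.2 CPM against 17.3 CPM. With either marker the CPM was higher in 4 of 4 libraries. None of the 107 cells with a UMI of Sst and none of the 62 with a UMI of Lhx6, a transcription factor of the Pvalb and Sst classes, held an Htr3a UMI, while 12.0% of 191 cells without Sst did. The Wilson limits of 3.47% and 5.83% for these zeros are for cells with a UMI, not for cells that express the gene. In striatum the split was weaker, with 8 UMIs in 4 of 171 Sst-positive cells (8.05 CPM) against 22.6 CPM in the others, and 17.5 CPM with Lhx6 against 19.8 CPM without. Only 12 striatal interneurons held a Vip UMI, and 3 of them carried 23 of the 85 Htr3a UMIs.

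**Figure D4:**
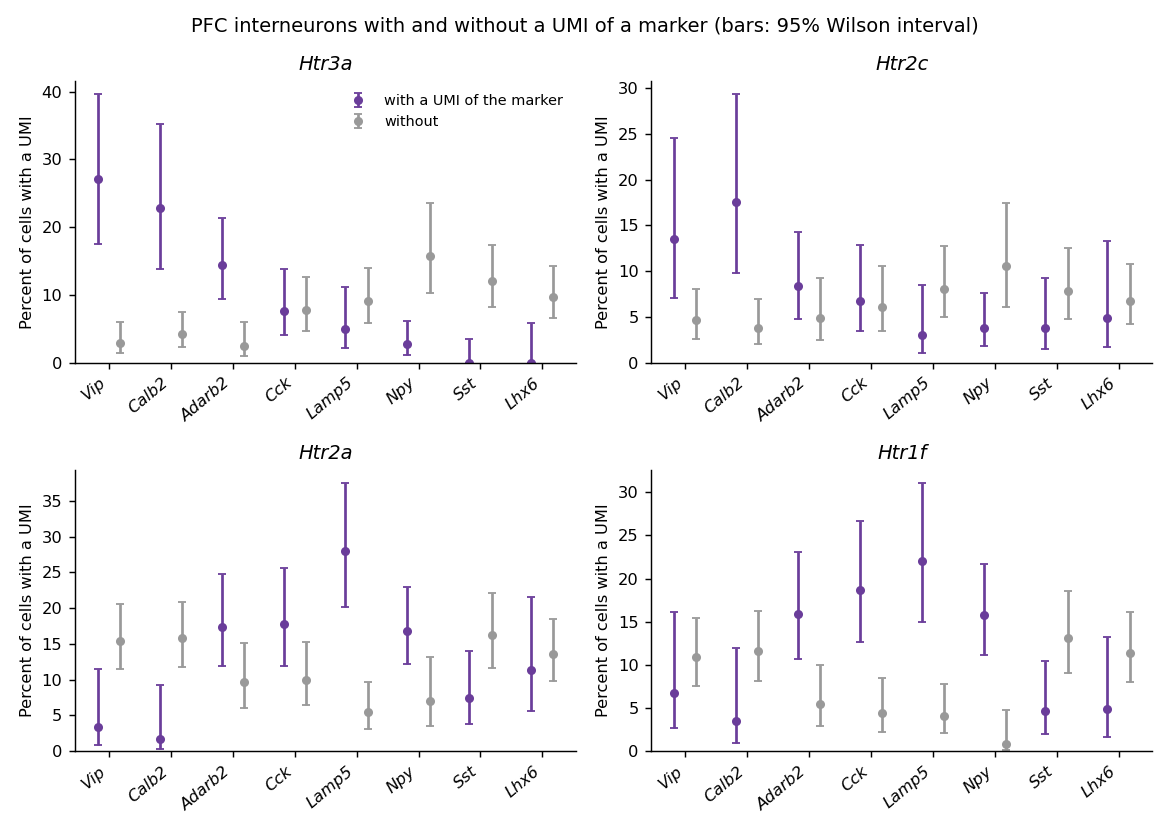
Percent of PFC interneurons with at least 1 UMI of Htr3a, Htr2c, Htr2a or Htr1f among cells with (purple) and without (grey) a UMI of each of 8 marker genes, with 95% Wilson intervals that cover counting error only. Htr3a lies with Vip (27.1 against 2.93%) and Calb2 and is absent with Sst and Lhx6, while Htr2a and Htr1f lie with Lamp5 (28 against 5.56%, and 22 against 4.04%).

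The Gs-coupled receptors were near the limit of detection, and Htr5a, outside this class, was also low. Htr4 gave 8 UMIs in PFC, 5 of them in DL-Tshz2 neurons (2.94 ± 2.74 CPM, with libraries from 0 to 6.62 CPM), and 47 in striatum, 28 of them in D1 MSNs (2.33 ± 0.947 CPM) and 10 in D2 MSNs (1.05 ± 0.87 CPM). Free RNA of striatum held 2.85 CPM of Htr4, above the mean of the D1 MSNs. Htr6 gave 27 UMIs in PFC, 24 of them in excitatory neurons (1.26 ± 0.595 CPM), and 90 in striatum. It was at 3.43 ± 1.38 CPM in D1 MSNs and 3.24 ± 1.24 CPM in D2 MSNs, beside 3.53 ± 3.47 CPM in astrocytes (8 UMIs) and 3.82 CPM in free RNA, and these ranges overlapped. Striatal interneurons held 3 UMIs of Htr6 (0.568 ± 1.14 CPM).

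Htr7 gave 25 UMIs in PFC and 39 in striatum, of which D2 MSNs held 24. Its level was 2.55 ± 0.872 CPM in D2 MSNs (lowest library 1.56 CPM, from 2 UMIs) and 0.485 ± 0.186 CPM in D1 MSNs (highest library 0.734 CPM, from 2 UMIs), with 1.18 CPM in free RNA. The CPM ranges of the classes did not overlap. The Wilson intervals of these lowest and highest libraries did, at 0.164 to 2.15% and 0.0544 to 0.72% of cells. Htr7 was below the filter on low counts, and this difference was not tested. In PFC it was 1.05 ± 0.634 CPM in excitatory neurons and 1.82 ± 2.20 CPM in interneurons, the latter from 3 UMIs.

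Interneurons were the only neuron class annotated in both tissues. Htr2c was lower in PFC than in striatal interneurons, with a log2 difference of -1.78 (SE 0.332, edgeR adjusted p = 0.00201), with every PFC library (5.72 to 33.3 CPM) below every striatal library (50.5 to 107 CPM). It was 1 of 4 receptors tested that was called, against 11.8% of all 7419 genes. The differences of Htr1f (0.96, SE 0.334, edgeR adjusted p = 0.0771), Htr3a (0.62, SE 0.407, edgeR adjusted p = 0.379) and Htr2a (0.22, SE 0.353, edgeR adjusted p = 0.748) did not pass. Free RNA held 58.9 CPM of Htr2c in striatum and 15.8 CPM in PFC, in the same order as the interneurons. Tissue and library cannot be told apart here, and the interneurons of the tissues differed in makeup. Per library, Vip was found in 11 to 35% of PFC and in 0 to 3.63% of striatal interneurons. For Calb2 the shares overlapped (16.7 to 24.4% and 18.1 to 24.3%). The part of makeup in the Htr2c difference was not tested.

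Genes that serve the receptors were followed as 6 lists of 41 genes, described by counts. Serotonin is made by Tph2 and Ddc, taken up by Slc6a4 and broken down by Maoa and Maob. The raphe neurons that make it were not sampled, and Slc6a4 gave 1 UMI per tissue and Tph2 7 in PFC and 16 in striatum. Maoa was highest in endothelial cells (307 CPM in PFC and 219 CPM in striatum) and Maob in astrocytes (98.3 and 112 CPM). Of 9 genes of synthesis, transport and breakdown, 3 were tested between PFC excitatory neurons and interneurons and 1 was called (25.8% of all genes were), Maob, higher in excitatory neurons by 2.49 (SE 0.50). Between MSNs and interneurons 3 were tested and 2 were called lower in MSNs (28.8% of all genes were called in either direction), with Maob at -2.96 (SE 0.28) and a list median of -1.15.

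On the side of signalling, the counts of genes called are to be read beside the shares over all genes, 28.8% between MSNs and interneurons and 2.88% between D1 and D2 MSNs. Plcb4, a phospholipase C of the Gq pathway, was lower in MSNs than in interneurons (log2 difference -3.85, SE 0.18) and higher in D1 than in D2 MSNs by 1.35 (SE 0.34). Of 5 Gq genes tested, 2 were called up and 2 down between MSNs and interneurons (median -0.11) and 1 up between D1 and D2. Of 7 Gs genes tested, 4 were called up and 3 down between MSNs and interneurons (median 0.66), with the adenylyl cyclase Adcy2 at -3.09 (SE 0.21), and Adcy2 was higher in D1 than in D2 MSNs by 2.86 (SE 0.32), whereas Gnas, the Gs protein itself, was lower in D1 (log2 difference -1.19, SE 0.127). These were the 2 Gs genes called between D1 and D2 MSNs. Of 5 Gi and Go genes, 3 were called lower in MSNs than in interneurons (median -0.60), and Gnaz was higher in PFC excitatory neurons than in interneurons by 1.60 (SE 0.21). Of 8 receptor partners and editing enzymes tested, 1 was called up and 3 down between MSNs and interneurons (median -0.51) and none between D1 and D2. Among them S100a10 (p11, a partner of Htr1b and Htr4) was lower in MSNs than in interneurons (log2 difference -3.27, SE 0.17) and higher in PFC excitatory neurons than in interneurons by 1.82 (SE 0.21). MSNs, high in Htr1b, were thus low in S100a10. Of the 4 other receptor genes, Htr1d gave 203 UMIs in striatum, at 9.67 CPM in D2 and 7.12 CPM in D1 MSNs, and 3 in PFC. Htr2b and Htr3b gave 0 UMIs in PFC and 4 and 3 in striatum, and Htr5b 10 in each tissue.

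The genes whose mean log2(CPM + 1) was most like that of a receptor across 23 groups of cells were, as a description, Ovol2 for Htr1a (Pearson r = 0.963), AC154509.1 for Htr1b (0.918), Hs3st5 for Htr1f (0.946), Unc5d for Htr2a (0.934), Scg2 for Htr2c (0.901), Sst for Htr3a (0.961), Trhr for Htr4 (0.845), Car10 for Htr5a (0.911), Gm2415 for Htr6 (0.844) and Ankrd34a for Htr7 (0.891). These are across groups that share libraries and depth. They do not mean that the genes lie in the same cells, since Sst and Htr3a were both highest in PFC interneurons while no PFC interneuron with a Sst UMI held one of Htr3a. Between receptors, the correlation ran from -0.15 (Htr3a with Htr6) to 0.79 (Htr1a with Htr5a).

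The study asked how loss of 1 Setd1a allele changes expression in each cell type, and the 10 genes were followed in the same comparison. Setd1a+/- libraries were compared with WT libraries in every group with at least 10 cells per library, and calls needed an adjusted p under 0.05 and a fold change over 1.5 in PFC or over 2 in striatum. The receptors passed the filter on low counts in 40 tests, and Htr4 and Htr7 in none of them. No receptor was called by edgeR, and none by DESeq2, with 25 values higher and 15 lower in Setd1a+/- (median 0.15, range -1.33 to 1.98) and 2 with an unadjusted p under 0.05. The 40 tests are not independent, since the subtypes are parts of the excitatory neurons and all groups of a tissue share its libraries. Their split by direction is a description only. Over all genes edgeR called 0% of 51145 tests in PFC cell types (869 with an unadjusted p under 0.05, 1 call by DESeq2) and 0% of 44783 in excitatory subtypes (715, and 0 by DESeq2). In striatal cell types it called 0.00544% of 73479 (1922 with an unadjusted p under 0.05, 4 calls, 5 by DESeq2). The 4 calls were all in D2 MSNs (0.0397% of genes tested there). These fits used no block. With the replicate number as a block, taken to pair the WT and Setd1a+/- libraries of a biological replicate, the calls over all genes were 26, 11 and 79. No receptor was among them. With 2 libraries per genotype, a receptor that was not called is not shown to be equal between genotypes.

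**Figure D5:**
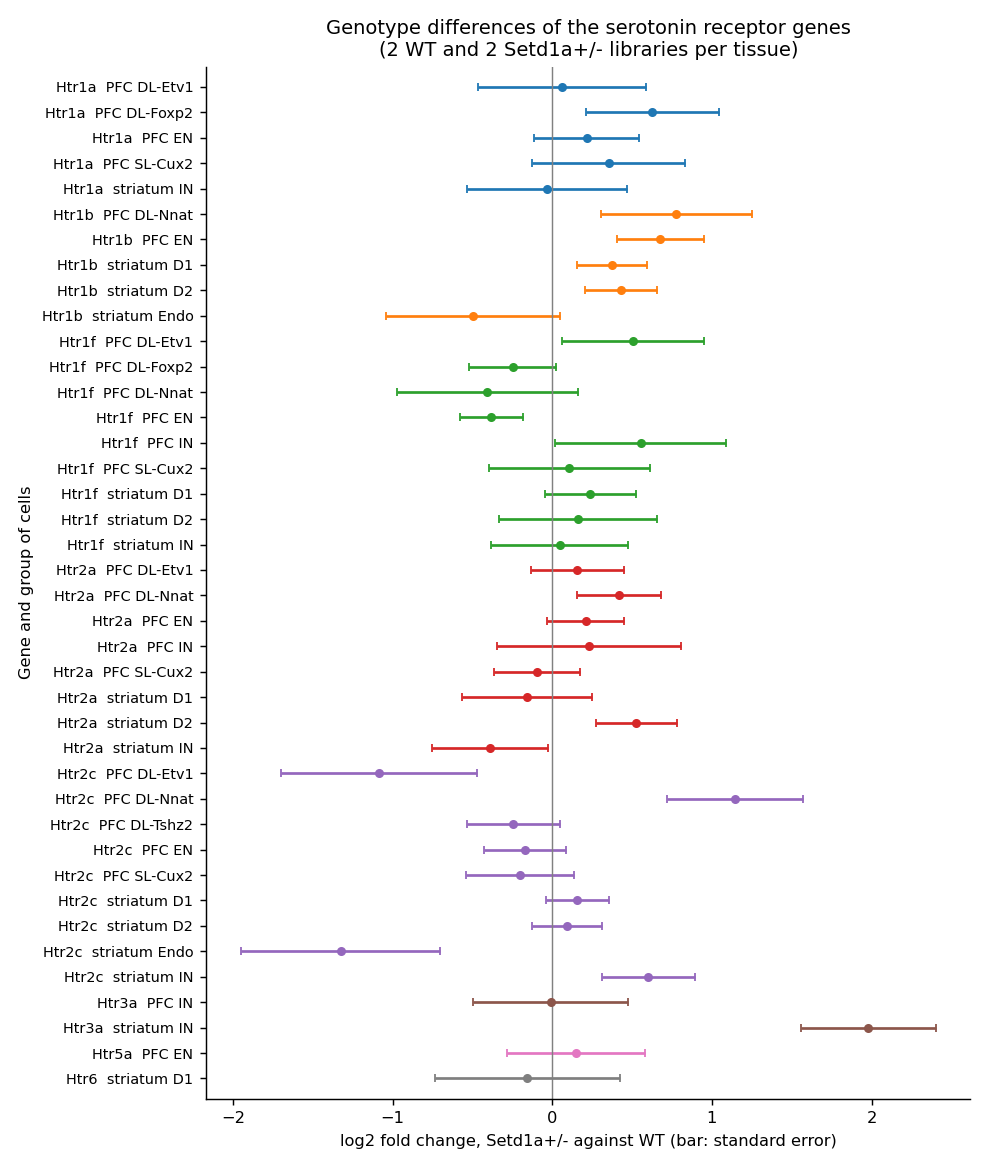
Log2 fold change of Setd1a+/- against WT, with its standard error, for each of the 40 tests of a receptor gene in a group of cells, coloured by gene, from 2 WT and 2 Setd1a+/- libraries per tissue. Values spread from -1.33 to 1.98 around 0, and Htr3a in striatal interneurons is farthest to the right.

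The largest value was that of Htr3a in striatal interneurons. The WT libraries held 16 and 6 UMIs (12.1 and 4.94 CPM) and the Setd1a+/- libraries 22 and 41 UMIs (27.1 and 38.7 CPM), so the genotypes did not overlap. The log2 fold change was 1.98 (SE 0.422, edgeR adjusted p = 0.768) and was not called. It was called without the filter on low counts (1.98, adjusted p = 0.000326), a setting that also called more genes over all striatal cell types. It was not called with the replicate block (1.99, adjusted p = 0.0558) or by DESeq2. The value was 2.76 without WT 1, 1.5 without WT 2, 2.19 without Setd1a+/- 1 and 1.68 without Setd1a+/- 2. These fits leave 1 library in a genotype, so only their sizes are given.

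Few cells lay behind this value. An Htr3a UMI was found in 14 of 246 and 5 of 189 WT interneurons (5.69 and 2.65%) and in 13 of 138 and 16 of 248 Setd1a+/- interneurons (9.42 and 6.45%), and a single cell of Setd1a+/- 2 held 18 of its 41 UMIs. Without the cell with the most Htr3a UMIs in each library the levels were 10.6 and 3.30 CPM against 22.4 and 21.9 CPM. The makeup of the interneurons varied between libraries, and for most markers the genotypes overlapped, with Vip UMIs of 142 and 0 in WT against 1 and 301 in Setd1a+/- libraries. Sst was found in 13.4 and 25.4% of WT cells and in 31.9 and 18.5% of Setd1a+/- cells, Lhx6 in 15.9 and 31.8% against 26.8 and 16.5%, Npy in 12.2 and 28.6% against 18.8 and 20.2%, Cck in 18.3 and 22.2% against 13.0 and 23.8% and Adarb2 in 11.4 and 10.1% against 10.1 and 8.87%, while Calb2, in 21.1 and 24.3% against 18.8 and 18.1%, and Chat, in 2.44 and 3.70% against 1.45 and 1.21%, did not overlap. Among interneurons without a UMI of Vip, Calb2, Cck or Adarb2, Htr3a was at 9.06 and 3.08 CPM in the WT libraries, compared with 28.1 and 23.1 CPM in the mutant ones, and among those with such a UMI at 15.2 and 7.06 against 25.2 and 56.2 CPM. Both splits were chosen after seeing the data. In summed counts of a group, more RNA per cell and more cells of an Htr3a-positive kind cannot be told apart.

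In PFC interneurons the genotype difference of Htr3a was -0.01 (SE 0.487), and it depended on 1 cell, which held 11 of the 14 Htr3a UMIs of WT 1. Without the cell with the most Htr3a UMIs in each library, a step added after seeing the data, the levels were 8.62 and 12.1 CPM in the WT libraries, compared with 20.1 and 20.1 CPM in the mutant ones, and the log2 ratio of the mean CPM went from -0.05 to 0.96. This ratio was not tested. The test of PFC against striatal interneurons for the genotype effect gave -1.96 for Htr3a (SE 0.674, edgeR adjusted p = 1), in a comparison where 0% of 8374 genes were called and 288 had an unadjusted p under 0.05. The other 3 receptors tested were Htr2a (0.65, SE 0.716), Htr1f (0.54, SE 0.695) and Htr2c (0.53, SE 0.736), none of them called. The share of Vip-positive cells in PFC interneurons was 12.5 and 11% in WT and 23.3 and 35% in Setd1a+/- libraries, while Htr3a, which was higher in such cells, was 40.0 and 21.9 CPM against 26.6 and 33.1 CPM.

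Htr2c in DL-Nnat neurons was the other value with p under 0.05, at 17.1 and 9.76 CPM in the WT libraries, compared with 30.1 and 27.0 CPM in the mutant ones (1.15, SE 0.427, edgeR adjusted p = 1). In striatal interneurons Htr2c had a log2 fold change of 0.60 (SE 0.29, edgeR adjusted p = 1), which rested on Setd1a+/- 2. Without that library it was -0.07, and without Setd1a+/- 1 it was 1.01, each from a fit with 1 Setd1a+/- library. In D1 and D2 MSNs the log2 fold change of Htr2c was 0.16 (SE 0.199) and 0.09 (SE 0.218), and in DL-Tshz2 neurons, where its level was highest, it was -0.24 (SE 0.29), each smaller than its SE. The lowest of the 40 values was that of Htr2c in striatal endothelial cells (-1.33, SE 0.625), at 10.3 and 15.8 CPM in the WT libraries, compared with 2.76 and 10.9 CPM in the mutant ones, which overlap. In DL-Etv1 neurons it was -1.09 (SE 0.616), and the mutant libraries, at 9.94 and 2.86 CPM, were below the WT ones. Neither was called, and with a library left out they ranged from -2.17 to -0.21 and from -2.14 to -0.45. Pooled over libraries, striatal endothelial cells held Htr2c at 10.7% of the MSN level, beside 6.24 to 22.6% for the MSN markers (Drd1 10.6%, Drd2 9.88%) and 58.9 CPM of Htr2c in free RNA, and the part of such RNA in the genotype value was not tested.

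Htr1b was higher in the Setd1a+/- libraries on average in PFC excitatory neurons (6.36 and 6.83 CPM in WT, 10.9 and 10.2 CPM in Setd1a+/-, log2 fold change 0.68, SE 0.273), in D1 MSNs (0.37, SE 0.218) and in D2 MSNs (0.43, SE 0.227), and lower in striatal endothelial cells (-0.50, SE 0.544). None of these passed, with edgeR adjusted p of 1 for each. In DL-Nnat neurons, a part of the excitatory neurons, it was 0.78 (SE 0.472). With a library left out, the values ran from 0.58 to 0.80 in excitatory neurons, 0.24 to 1.13 in DL-Nnat, 0.08 to 0.64 in D1 MSNs, 0.21 to 0.65 in D2 MSNs and -0.74 to -0.02 in endothelial cells, and in the last 4 of these the value nearest 0 was that without the library Setd1a+/- 1 of the tissue. Htr2a had fold changes between -0.39 (striatal interneurons) and 0.53 (D2 MSNs, SE 0.255), Htr1f between -0.41 (DL-Nnat) and 0.55 (PFC interneurons, SE 0.536), and Htr1a between -0.03 (striatal interneurons) and 0.63 (DL-Foxp2, SE 0.418). Of these, Htr1f in PFC interneurons was 0.02 without WT 2 and 1.23 without WT 1, and Htr1a in DL-Foxp2 was 0.19 without Setd1a+/- 1 and 0.88 without WT 1. Htr2a and Htr1a in striatal interneurons and Htr1f in DL-Nnat turned sign with a library left out, while Htr2a in D2 MSNs did not. Htr5a in excitatory neurons (0.15, SE 0.432) and Htr6 in D1 MSNs (-0.16, SE 0.578) were each tested in 1 group.

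The genotype effect was also compared between D1 and D2 MSNs, where 0.0819% of 10989 genes were called. None of the 5 receptors tested was called there. Htr2a had the largest value, with a D1 effect minus D2 effect of -0.73 (SE 0.393, edgeR adjusted p = 1). With a library left out it ranged from -1.21 to 0.03. The other 4 were Htr6 (-0.41, SE 0.794), Htr1b (-0.07, SE 0.218), Htr2c (0.04, SE 0.152) and Htr1f (0.11, SE 0.416). For the 6 lists of serotonin system genes, 463 tests between genotypes gave 0 calls by edgeR and 4 with an unadjusted p under 0.05.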

How the data were processed

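Single-cell RNA-seq counts were analysed from 8 libraries of mouse PFC and striatum (10x Chromium, papain dissociation), 2 per genotype and tissue. The deposited matrices hold raw UMI counts per gene and droplet, which the authors made with Cell Ranger 3.0.2 against mm10 and analysed in Seurat 3.2.0, per the labels. Cells under 800 genes or over 10% mitochondrial reads had been removed by the authors, and their deposited cell table gave the cell type of each cell. Gene-by-cell tables of the same cells were not used. No doublet caller was run here, and whether the authors removed doublets is not given in the sources used here.

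UMIs were summed per library and group of cells. Sums were tested in R 4.3.3 by the quasi-likelihood method of edgeR 4.0.16. Libraries were scaled by TMM, genes were filtered by filterByExpr (min.count of 10), and p-values were adjusted over all genes of a comparison after Benjamini and Hochberg. Between cell types the library was a block. The tests were checked on simulated data. There the genotype test in PFC excitatory neurons found none of the changes of 2-fold, and that in D1 MSNs missed many of them. Both made some false calls. The test of D1 against D2 MSNs found most changes of 2-fold. Each library pools 2 mice, so p-values measure the spread between pools. Alternatives were DESeq2 1.42.0, library size only, no filter, a replicate block, no library block, leaving out each library, pooled CPM and cells thinned to 1000 UMIs. The single-cell test of the study was not run. Splits by marker UMIs, and leaving out the highest cell, were added after seeing the data.

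The study states that each biological replicate held 1 WT and 1 Setd1a+/- library. That libraries of the same number form 1 replicate was assumed from their numbering. The deviations of same-numbered libraries from their group means correlated with a median r of 0.365 over PFC groups of cells (0.118 to 0.595) and 0.176 over striatal groups (0.094 to 0.39). The receptors tested were named, or summarised by their range, in each main comparison, and pairs of subtypes are given for selected receptors. The most similar genes were taken by Pearson correlation among genes with at least 200 UMIs, of which the highest is printed. The members and lists were chosen with earlier results of these data known. Wilson intervals (95%) and limits for a count of 0 (3 UMIs) cover counting error only. Free RNA was measured in droplets with at most 100 UMIs.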

Additional observations from a re-analysis of the deposited data

How the results depend on the processing

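Over 91 comparisons of a receptor whose fitted values are given and 724 alternatives, the direction and the call were the same in 652, the direction turned in 48, a call was gained in 9 and a call was lost in 15, all of the latter between PFC excitatory subtypes. Htr1b was no longer called between SL-Cux2 and DL-Nnat by DESeq2 (-1.10), with no library block (-1.10) and without Setd1a+/- 1 (-0.73), nor between DL-Etv1 and DL-Nnat by DESeq2 (-1.08), with no library block (-1.08) and without WT 2 (-1.07), Setd1a+/- 1 (-0.87) or Setd1a+/- 2 (-1.13). Htr2c was no longer called between SL-Cux2 and DL-Nnat by DESeq2 (0.73), with no library block (0.72) and without WT 1 (0.69) or WT 2 (0.39), nor in DL-Etv1 against the others with no library block (-0.97) and without WT 2 (-1.14) or Setd1a+/- 2 (-0.58). Not included are Htr1b and Htr1f in superficial against deep subtypes and Htr3a between PFC excitatory neurons and interneurons, where a group is at 0 or 1 UMI. Htr3a was called in that comparison except without PFC WT 1, where it was below the filter on low counts and was not tested. With 0 UMIs in excitatory neurons it passed the filter only through interneurons, so these calls add no support. Of the 91, no value that was called turned. Of 29 highest groups (10 receptors in 3 sets of groups, without Htr3a in excitatory subtypes, where it had 0 UMIs), 27 stayed the same with pooled CPM and 19 with thinned shares. The number of genes called between genotypes in PFC cell types, 0 in the fit reported, was 1 by DESeq2, 63 without the filter on low counts, 26 with the replicate block and 25 to 122 with a library left out. In excitatory subtypes, also 0, it was 28 without the filter, 11 with the block and 7 to 306 with a library left out, the highest in both without Setd1a+/- 2. In striatal cell types, where it was 4, it was 110 without the filter, 79 with the block and 67 to 402 with a library left out, the highest without Setd1a+/- 1. Fits that leave out a library assume that the lone library of a genotype varies like the others. The receptors called in striatum were 0, but 1 without the filter (Htr3a in interneurons), where 110 genes were called. The block changed no call of a receptor.

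Between cell types, the receptors called rose from 1 to 2 without the filter for PFC excitatory neurons against interneurons and from 2 to 5 for MSNs against interneurons. With the filter, 25.8% and 28.8% of all genes were called in these comparisons. The shares without the filter are not given here, so the rise is not read as a result about the receptors. Between PFC and striatal interneurons, 1552 genes were called without the filter against 876, and 1 to 2 receptors with a library left out, Htr1f being called without PFC WT 2 (1.24). Htr2a passed between PFC excitatory neurons and interneurons without PFC WT 1 (0.86). The genotype effect in D1 against D2 MSNs had 9 genes called and 4 to 17 with a library left out.

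None of the log2 fold changes that turned sign had been called. Htr1f between PFC excitatory neurons and interneurons was -0.15 by DESeq2, -0.14 with library size only and -0.004 with no library block, and -0.34 to 0.18 with a library left out. Htr3a in PFC interneurons was 0.02 without the filter, Htr1f in striatal interneurons -0.0005 with library size only, and with the replicate block Htr1a was -0.03 in DL-Etv1 neurons and 0.003 in striatal interneurons. With a library left out, the genotype differences in PFC ranged from -0.40 to 0.06 for Htr2c, -0.20 to 0.46 for Htr5a and -0.25 to 0.54 for Htr1a in excitatory neurons, from -0.36 to 1.06 for Htr2a and -0.38 to 0.41 for Htr3a in interneurons, from -0.22 to 0.007 for Htr2a and -0.52 to 0.57 for Htr1f in SL-Cux2, from -0.05 to 0.46 for Htr2a and -0.72 to 0.59 for Htr1a in DL-Etv1, and from -0.92 to 0.11 for Htr1f in DL-Nnat. In striatum they ranged from -0.05 to 0.41 for Htr2c, -0.69 to 0.49 for Htr6, -0.49 to 0.37 for Htr2a and -0.17 to 0.53 for Htr1f in D1 MSNs, from -0.30 to 0.38 for Htr2c and -0.93 to 0.66 for Htr1f in D2 MSNs, and from -0.07 to 1.01 for Htr2c, -1.23 to 0.05 for Htr2a, -0.25 to 0.25 for Htr1a and -0.44 to 0.34 for Htr1f in interneurons. Htr1f in MSNs against interneurons ranged from -0.13 to 0.06, and among subtypes Htr2a in SL-Cux2 against DL-Nnat from -0.10 to 0.26 and Htr1b in SL-Myh7 against DL-Nnat from -0.34 to 0.11. The genotype effect in PFC against striatal interneurons ranged from -0.03 to 1.19 for Htr1f, and that in D1 against D2 MSNs from -0.15 to 0.33 for Htr2c, -1.21 to 0.03 for Htr2a and -0.40 to 0.79 for Htr1f. The causes were not tested. The depth limits Htr4, Htr5a, Htr6 and Htr7, each with fewer than 100 UMIs in each tissue.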
